A study of Mus musculus with 2 samples.

Results

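The matrix metalloproteases (MMP genes), the secreted ADAMTS proteases, the ADAMTS-like proteins (Adamtsl genes) and the tissue inhibitors of metalloproteases (TIMP genes) were followed in mouse ureters at E14.5, in mid-gestation. Members were the non-control probes present on both arrays whose gene name in the scanner files was Adamts, Adamtsl or Mmp followed by a number (with or without a letter a or b after an Mmp number), or Timp1 to Timp4. They comprised 51 genes with 74 probes, of 30011 genes with 39429 probes on the array. By family they were 19 ADAMTS, 5 ADAMTSL, 23 MMP and 4 TIMP genes. The ureters carried either a conditional loss of Gata6, called Gata6cKO, with the genotype Tbx18(cre/+);Gata6(fl/fl), or the control genotype Gata6(fl/?), all on the NMRI strain. Gata6 encodes a zinc finger transcription factor, and cre expressed from the Tbx18 locus recombines floxed alleles in cells that have expressed Tbx18, chiefly the mesenchyme around the ureteric epithelium. The 1 male and 1 female Gata6cKO RNA were each set against the control RNA of the same sex on a two-colour array. The second floxed allele of the controls is not specified, and cre occurs in the labels of the Gata6cKO RNAs only. Loss of Gata6 and the cre insertion into 1 copy of Tbx18 therefore cannot be told apart here. The labels give neither the number of embryos behind an RNA nor their litters, so the p-values below speak for these samples only. Their error rests mostly on a variance pooled over all genes tested (1 residual and 12.2 prior degrees of freedom). The spread of a single gene between the 2 arrays adds little to it.

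Matrix proteases are made as inactive precursors. MMP enzymes cut collagens and other matrix proteins at the cell surface or in the surrounding space, and the membrane-type members also activate other MMP precursors there. ADAMTS enzymes carry thrombospondin repeats that hold them to the matrix. Some cut proteoglycans such as versican and aggrecan, and others trim the amino-terminal propeptide of fibrillar procollagens. Several of the remaining enzymes act on fibrillin, fibronectin, cartilage oligomeric matrix protein or von Willebrand factor. ADAMTS-like proteins share the repeats but lack the catalytic domain, and several bind fibrillin microfibrils. TIMP proteins block the active site of MMP enzymes, and Timp3 also blocks ADAMTS enzymes. In the developing ureter the mesenchyme that becomes smooth muscle and connective tissue lays down most of this matrix around the urothelium.

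Array 1 held the male RNAs with Gata6cKO in red (AlexaFluor647), and array 2 the female RNAs with the dyes exchanged, so sex, dye orientation and replicate cannot be told apart between the arrays. Both arrays lay on 1 slide and shared 1 scan time. Between 67.2% and 68.5% of spots were well above background per channel, 0 spots were saturated, and the log2 ratios of the 2 arrays had a Pearson r of 0.41 across the 19875 genes tested, which are not independent replicates. The Gata6 probe itself was higher in Gata6cKO RNA, at a log2 ratio of 0.65 with a moderated SE of 0.12 (n = 2 arrays, limma adjusted p = 0.0057). Whether that probe lies in the floxed part was not settled, so it does not check the genotype labels. Defining markers of the labelled tissue were present: all 18 urothelial, 10 of 11 smooth muscle and all 9 mesenchymal markers were kept.

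Of the 51 member genes, 33 were measured well above background in at least 1 genotype on both arrays and entered the test, and 18 were not. At an adjusted p under 0.05 (limma, Benjamini-Hochberg over all 19875 genes) 4 members were higher and 1 was lower in Gata6cKO. Adamts18 rose most, and Adamtsl1, Adamts19 and Adamts17 rose by less. Timp4 was the member that fell. No MMP gene passed. The 5 calls among 33 members are 15.2%, beside 4.58% of all genes tested, 2.22% called higher and 2.36% called lower. When a 2-fold difference on each array was required, Adamts18 alone passed as higher and 0 members passed as lower, beside 0.186% and 0.211% of all genes. The median log2 ratio (Gata6cKO over control) was 0.04 over the 33 members and -0.002 over all genes tested. At an unadjusted p under 0.05, 7 members were higher and 3 lower, beside 5.25% and 6.1% of all genes tested.

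**Figure D1:**
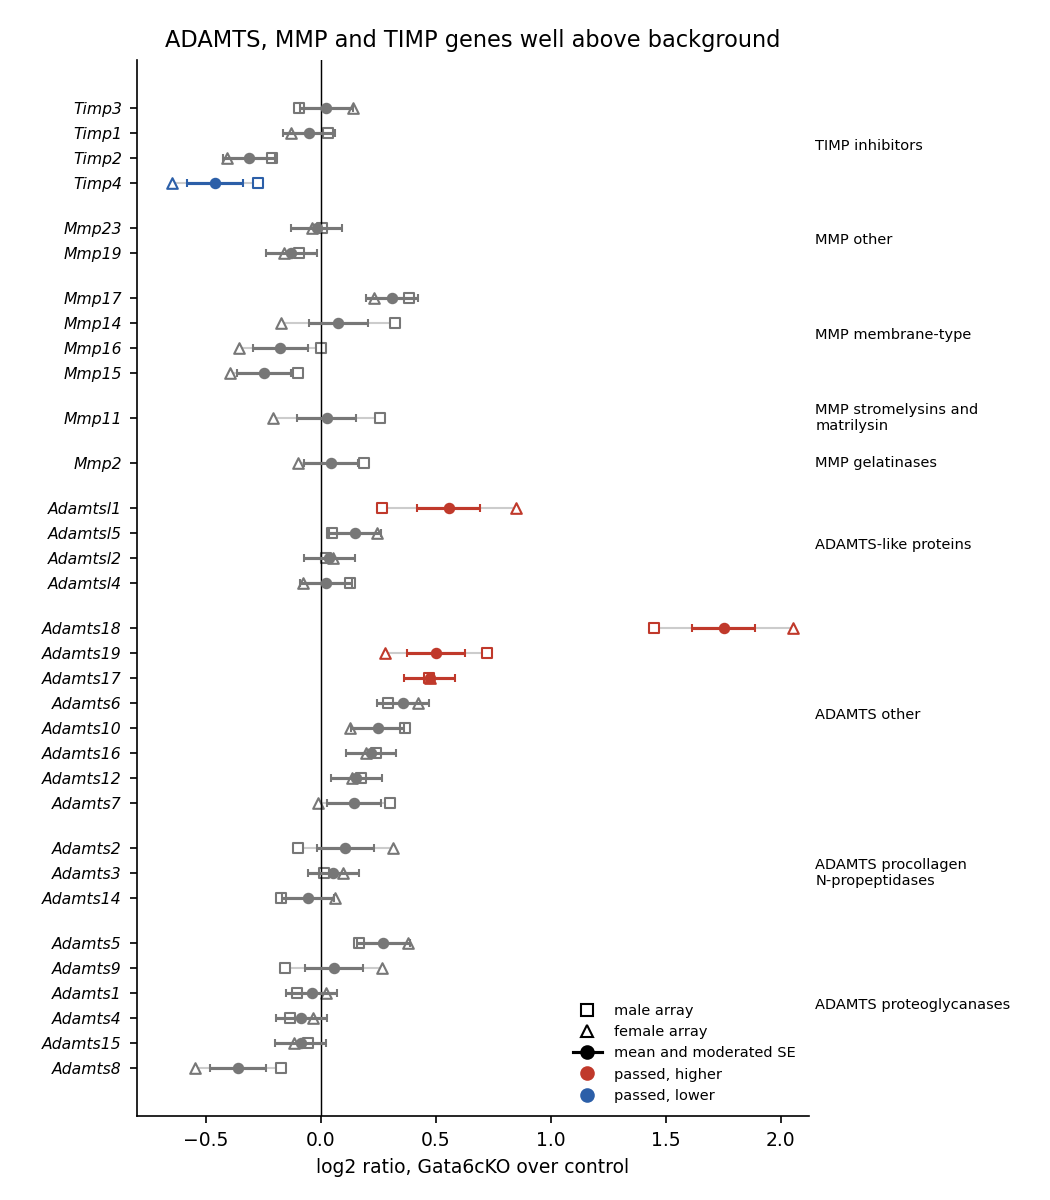
Log2 ratio of Gata6cKO over control (x axis) for the 33 members tested, grouped by role (y axis). Squares and triangles are the male and the female array, circles the mean with its moderated SE over the 2 arrays, and colours mark the members that passed. Adamts18 stands apart at 1.75, and the other 4 members that passed lie between -0.46 and 0.56.

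Adamts18 is a secreted protease known from mouse mutants for roles in the eye, the lung and the female reproductive tract. It was measured by 2 probes, the brighter at chr8:116222720-116222779 on the minus strand (mm9). The normalised signal of that probe, a linear intensity that contains an added offset of 50, was 494 in the male and 405 in the female control RNA. It was 1349 in the male and 1678 in the female Gata6cKO RNA. The genotypes thus did not overlap, with the lower Gata6cKO value well over the higher control value. The log2 ratio was 1.45 between the males and 2.05 between the females, with a mean of 1.75 ± 0.14 (moderated SE, n = 2), a 3.37-fold rise (limma adjusted p = 6.96e-06, 95% interval 1.45 to 2.05). The other probe gave 1.32 and 1.88, with a mean of 1.60. The call held under all 10 alternative processing settings, with log2 ratios between 1.68 and 1.92 and adjusted p between 2.18e-19 and 0.0137. The promoter is shown because this is the largest change among the members: the 250 bases before the RefSeq start, chr8:113848840-113849089, minus strand, GRCm38.p6.
Adamts18: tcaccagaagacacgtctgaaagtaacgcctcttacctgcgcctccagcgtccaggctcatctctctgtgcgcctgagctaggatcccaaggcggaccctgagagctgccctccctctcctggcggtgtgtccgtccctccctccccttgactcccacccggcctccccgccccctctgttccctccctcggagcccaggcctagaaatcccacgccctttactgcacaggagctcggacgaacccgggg

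**Figure D2:**
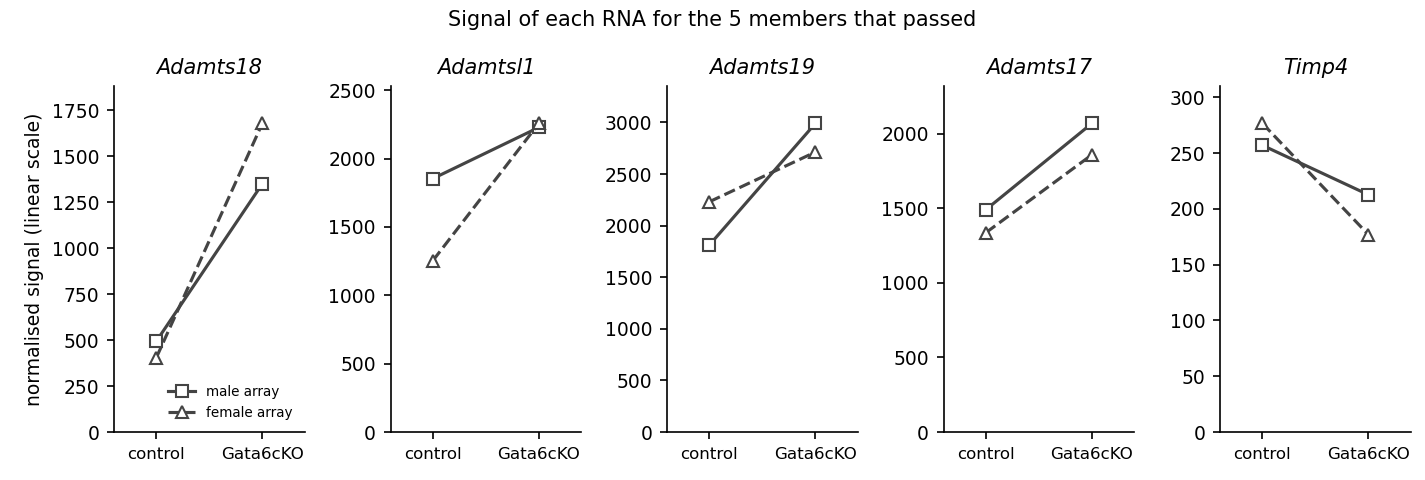
Normalised signal of each RNA (y axis, linear scale from 0, different for each gene) in control and Gata6cKO (x axis) for the 5 members that passed. Lines join the 2 RNAs hybridised to the same array. In each panel both Gata6cKO values lie on the same side of both control values, and the Adamts18 values rise from 494 and 405 to 1349 and 1678.

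Adamts17, an enzyme linked to fibrillin microfibrils and mutated in a form of short stature with eye disease, had nearly the same ratio on both arrays. Its probe at chr7:74297448-74297507 (plus strand, mm9) gave 1490 and 1336 in the male and female control and 2068 and 1857 in the male and female Gata6cKO RNA. Both Gata6cKO values lay above both control values. The log2 ratios of 0.47 and 0.48 gave a mean of 0.47 ± 0.11 (moderated SE, n = 2), a 1.39-fold rise (limma adjusted p = 0.023). A dimmer probe of the gene gave 0.05, with signals of 120 and 123 in control and 124 and 128 in Gata6cKO, close to background, so the call rests on 1 probe. The call was kept in 6 of 10 alternatives and lost in 4, with adjusted p between 0.0096 and 1.00. With the mean of the kept probes the log2 ratio was 0.26. Its promoter is shown beside that of Adamts18 as that of another ADAMTS gene that rose: the 250 bases before the RefSeq start, chr7:66839485-66839734, plus strand, GRCm38.p6.
Adamts17: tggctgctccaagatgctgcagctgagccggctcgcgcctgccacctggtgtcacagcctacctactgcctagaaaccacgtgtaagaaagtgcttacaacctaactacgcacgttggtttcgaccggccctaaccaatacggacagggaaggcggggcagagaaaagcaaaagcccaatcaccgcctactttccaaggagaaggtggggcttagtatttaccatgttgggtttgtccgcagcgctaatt

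Adamts19 is a protease mutated in heart valve disease. Its single probe gave 1812 and 2231 in the male and female control and 2990 and 2713 in the male and female Gata6cKO RNA. The groups did not overlap, and the rise was larger on the male array. The log2 ratios of 0.72 and 0.28 had a mean of 0.50 ± 0.13 (moderated SE, n = 2), a 1.42-fold rise (limma adjusted p = 0.0357). It passed in 6 of 10 alternatives (adjusted p between 0.0113 and 1.00).

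These 3 genes belong to the ADAMTS genes left over after the proteoglycanases and the procollagen N-propeptidases, a group that no shared substrate defines. The other tested genes of this group did not pass. All 8 tested genes of this group had a mean log2 ratio above 0, from 0.14 to 1.75, with a median of 0.30, and 3 of them passed. Over all genes tested, 49.2% had a mean ratio above 0 and 2.22% were called higher. Adamts7 was at 0.30 between males and -0.01 between females, and its genotypes overlapped. Adamts6, which like its close relative Adamts10 acts on fibrillin microfibrils, stood at 0.36 ± 0.11 (limma adjusted p = 0.108), with 562 and 564 in the control and 688 and 756 in the Gata6cKO RNAs. Adamts10 was at 0.25 at its brighter and -0.07 at its other probe. Adamts16, an enzyme that cuts fibronectin, was at 0.22. Adamts12 and Adamts7, which cut cartilage oligomeric matrix protein, were at 0.15 and 0.14. For these 5 genes the 95% intervals reached from -0.11 at the lowest (Adamts7) to 0.60 at the highest (Adamts6). The ninth gene, Adamts13, the protease of von Willebrand factor, was not well above background.

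The ADAMTS proteoglycanases did not move together. None of the 6 tested genes passed, and their median log2 ratio was -0.06. Adamts1, which cuts versican, gave 15007 and 15297 in the control and 13974 and 15550 in the Gata6cKO RNAs, so the genotypes overlapped. Its log2 ratio was -0.04 with a 95% interval of -0.28 to 0.20. Adamts9, another versican-cleaving enzyme, was at 0.06 and changed sign between the arrays (-0.15 and 0.27). Adamts15 was at -0.09 and Adamts4, an aggrecanase, at -0.08. Adamts5, the other main aggrecanase, was at 0.27 with signals of 350 and 333 in control and 393 and 433 in Gata6cKO, an unadjusted p of 0.0323 and a limma adjusted p of 0.33. Its other probe, nearly as bright, gave -0.11 between males and 0.58 between females, and there the genotypes overlapped. Adamts8 lay on the other side, at -0.36 ± 0.12, with 359 and 377 in control and 318 and 258 in Gata6cKO. Its limma adjusted p was 0.152, and it passed with the authors' deposited series values. Adamts20 was not well above background. Adamts1 and Adamts5 are neighbours on chromosome 16, as are Adamts15 and Adamts8 on chromosome 9, in the gene order of RefSeq GRCm38.p6.

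The procollagen N-propeptidases, which trim fibrillar procollagens before fibril assembly, gave 0 calls among 3 tested genes. Adamts2 had 7633 and 5913 in control and 7120 and 7353 in Gata6cKO, with the male array lower (-0.10) and the female array higher (0.31). Its mean of 0.11 had a 95% interval of -0.16 to 0.37. Adamts14 was at -0.05. Adamts3 was at 0.06, with signals of 117 to 125 near background.

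Among the ADAMTS-like proteins, Adamtsl1 rose. Its brightest probe, at chr4:86074196-86074255 (plus strand, mm9), gave 1853 and 1253 in the male and female control and 2227 and 2256 in the male and female Gata6cKO RNA. The Gata6cKO values were close to each other and above both controls, which differed more. The log2 ratios of 0.27 and 0.85 had a mean of 0.56 ± 0.14 (moderated SE, n = 2), a 1.47-fold rise (limma adjusted p = 0.0315). Both other probes were positive, at 0.51 and 0.28. The call was kept in 5 of 10 alternatives (adjusted p between 0.0031 and 0.941). Adamtsl5 was at 0.15, Adamtsl2, a binding partner of latent TGF-beta binding protein, at 0.04, and Adamtsl4, mutated in displacement of the lens, at 0.02. Adamtsl3 was not well above background.

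Where several probes of a member were kept, they could be set against each other. This was so for 14 members, with 15 pairs of probes, and 3 pairs had opposite signs (Adamts10, Adamts9 and Adamtsl5), none of them in a member that passed. On the mean ratios the gap was widest in Adamts17 (0.47 and 0.05). On the single arrays it was wide in Adamts4, whose second probe gave 0.38 between males and -1.13 between females where the brighter gave -0.13 and -0.03.

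**Figure D3:**
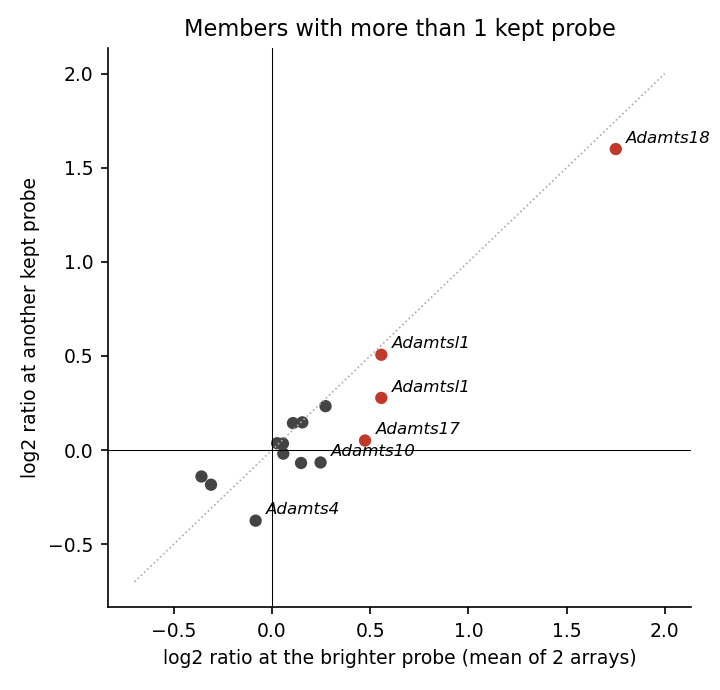
Mean log2 ratio (Gata6cKO over control, n = 2 arrays) at the brighter probe of a member (x axis) and at another kept probe (y axis), for 15 pairs in 14 members. The dotted line marks equal ratios and red marks members that passed. Adamts18 has 1.75 and 1.60, whereas Adamts17 has 0.47 and 0.05.

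Of the 23 MMP genes, 8 were tested and none passed. Their log2 ratios ran from -0.25 to 0.31 with a median of 0.005. Mmp2, the gelatinase of mesenchymal cells, gave 10545 and 14471 in the male and female control and 12012 and 13520 in the male and female Gata6cKO RNA. Its log2 ratio was 0.19 between males and -0.10 between females, with a mean of 0.04 ± 0.12 and a 95% interval of -0.21 to 0.30. Mmp14, the membrane-type enzyme that activates the Mmp2 precursor, did the same: 3038 and 4895 in control, 3805 and 4349 in Gata6cKO, with log2 ratios of 0.32 and -0.17. Its mean of 0.08 had a 95% interval of -0.20 to 0.36. Mmp11, or stromelysin-3, which is activated by furin inside the cell, had 12264 and 14677 in control and 14662 and 12734 in Gata6cKO, with log2 ratios of 0.26 and -0.20. In these 3 genes the genotypes overlapped, and none of the intervals reached a 2-fold change in either direction. Among the 8 MMP genes, 5 had a positive ratio between males with a negative ratio between females, and 0 the other way round. Of these 5, Mmp16 and Mmp23 had male ratios close to 0 (0.002 and 0.006). Over all genes tested, the sign was the same on both arrays in 48.8%. The share of all genes that were higher between males and lower between females was not counted.

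The other membrane-type enzymes differed in sign. Mmp17, which is held by a lipid anchor, was at 0.31 ± 0.11, with 429 and 449 in control and 561 and 527 in Gata6cKO. It reached an unadjusted p of 0.0162 but a limma adjusted p of 0.204. Mmp15 was at -0.25 ± 0.12 and Mmp16 at -0.18 ± 0.12. Mmp19 was at -0.13, with signals of 114 to 136 near background. It was kept through the control RNAs only, with 1 of 4 spots well above background in the male Gata6cKO RNA. Mmp23, an atypical MMP without the hemopexin domain, had 2185 and 2580 in control and 2194 and 2510 in Gata6cKO, a log2 ratio of -0.02 with a 95% interval of -0.25 to 0.22.

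The other 15 MMP genes were not well above background in either genotype on both arrays. These were all 4 collagenases (Mmp1a, Mmp1b, Mmp8, Mmp13), the gelatinase Mmp9, the stromelysins and matrilysin Mmp3, Mmp10 and Mmp7, the membrane-type Mmp24 and Mmp25, and Mmp12, Mmp20, Mmp21, Mmp27 and Mmp28. Together with Adamts13, Adamts20 and Adamtsl3 they had 24 probes, of which 13 of 384 spots counted over both channels and arrays (3.39%) were well above background. Their signals ran from 64.1 to 113, and the dimmest probe that was well above background on an array lay at 106 to 111 depending on the RNA. No fold is given for these 18 genes, and low transcript levels cannot be told from a weak probe.

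In the RefSeq gene order of GRCm38.p6, 10 of these MMP genes form an unbroken run on chromosome 9 between Dcun1d5 and Tmem123: Mmp13, Mmp12, Mmp1b, Mmp3, Mmp1a, Mmp10, Mmp8, Mmp27, Mmp20 and Mmp7. All 10 were undetected by the rule above in both genotypes. The same 2 short motifs recurred in their promoters, which is given as a description with no test. The AP-1 motif TGAGTCA, searched on both strands in 300 bases (250 before to 50 after the start), was in 7 of 39 member promoters (17.9%) and in 5.20% of all 32851 promoters of the RefSeq table. All 7 genes belong to this run (Mmp10, Mmp12, Mmp13, Mmp1a, Mmp1b, Mmp3 and Mmp7). The TATA motif TATAAA, on both strands, was in 12 of 39 (30.8%) and in 13.6% of all promoters. These letters occur in 9 of the 10 genes of the run, at unlike positions. They began 29 bases before the start in Mmp10, 28 in Mmp1a, 26 and 123 in Mmp7, and 16 in Mmp13. In Mmp1b they began 49, in Mmp20 58 and in Mmp3 7 bases before it. In Mmp12 they lay after the start, and in Mmp8 on the opposite strand across the start. AP-1 and TATA elements close to the start are a textbook feature of inducible MMP promoters. The 6 promoters shown are those in which both motifs lie complete within the 120 bases before the start, with the AP-1 and TATA motifs in capitals, all on chromosome 9 of GRCm38.p6. The Mmp13 motif is on the opposite strand and reads as TGACTCA.
Mmp1a (chr9:7464021-7464140, plus): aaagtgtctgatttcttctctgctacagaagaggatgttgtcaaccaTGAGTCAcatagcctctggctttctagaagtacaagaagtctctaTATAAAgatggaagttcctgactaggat
Mmp1b (chr9:7388027-7388146, minus): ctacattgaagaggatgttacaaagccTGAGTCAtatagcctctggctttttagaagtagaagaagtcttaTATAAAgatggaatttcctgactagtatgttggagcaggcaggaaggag
Mmp3 (chr9:7445702-7445821, plus): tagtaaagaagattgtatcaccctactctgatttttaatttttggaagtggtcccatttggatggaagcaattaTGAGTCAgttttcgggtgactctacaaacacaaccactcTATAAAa
Mmp7 (chr9:7691970-7692089, plus): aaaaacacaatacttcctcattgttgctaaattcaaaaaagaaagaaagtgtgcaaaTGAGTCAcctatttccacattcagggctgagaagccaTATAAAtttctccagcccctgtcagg
Mmp10 (chr9:7502222-7502341, plus): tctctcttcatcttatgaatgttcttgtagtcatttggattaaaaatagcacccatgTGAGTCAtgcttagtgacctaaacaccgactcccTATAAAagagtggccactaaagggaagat
Mmp13 (chr9:7272394-7272513, plus): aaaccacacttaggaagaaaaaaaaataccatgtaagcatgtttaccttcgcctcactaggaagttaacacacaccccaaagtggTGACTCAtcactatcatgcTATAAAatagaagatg
The AP-1 motif began 73 bases before the start in Mmp1a, 93 in Mmp1b, 46 in Mmp3, 63 in Mmp7 and Mmp10, and 35 in Mmp13. A match in these letters does not show a bound site, and the windows come from a reference table, not from these embryos.

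All 4 inhibitor genes were tested, and Timp4 passed. Timp4 is a TIMP of restricted expression, best known from heart and vessels. Its probe at chr6:115196120-115196179 (minus strand, mm9) gave 257 and 277 in the male and female control and 213 and 177 in the male and female Gata6cKO RNA, so the genotypes did not overlap. The log2 ratios were -0.27 and -0.64, with a mean of -0.46 ± 0.12 (moderated SE, n = 2), 1.37-fold lower in Gata6cKO (limma adjusted p = 0.0494). The call lies at the threshold, was kept in 7 of 10 alternatives and had adjusted p between 8.93e-05 and 1.00. The log2 ratio ran from -0.72 with the deposited series values to -0.44 with median centring, and was -0.71 with the processed signals. Timp4 is the member that fell, and its promoter is given for comparison with those of the genes that rose: the 250 bases before the RefSeq start, chr6:115252206-115252455, minus strand, GRCm38.p6.
Timp4: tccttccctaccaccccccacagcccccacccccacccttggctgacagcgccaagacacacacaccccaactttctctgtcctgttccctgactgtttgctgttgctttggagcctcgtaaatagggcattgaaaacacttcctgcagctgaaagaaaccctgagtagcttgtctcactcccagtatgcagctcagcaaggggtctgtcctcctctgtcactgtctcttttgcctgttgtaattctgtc

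Timp2, which inhibits Mmp14 and also takes part in the activation of the Mmp2 precursor, was lower on both arrays at both of its probes without passing. It gave 71818 and 66695 in control and 62012 and 50234 in Gata6cKO, with both Gata6cKO values below both controls. The log2 ratio was -0.31 ± 0.11 (95% interval -0.55 to -0.07, limma adjusted p = 0.209), and -0.18 at the other probe. Timp1 gave 6972 and 6740 in control and 7127 and 6157 in Gata6cKO, a log2 ratio of -0.05 with a 95% interval of -0.29 to 0.19. Timp3, the matrix-bound TIMP that also blocks ADAMTS enzymes, gave 50584 and 46264 in control and 47447 and 51003 in Gata6cKO. Its log2 ratio was 0.02 with a 95% interval of -0.22 to 0.27, and the genotypes overlapped in Timp1 and Timp3 alike.

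The letters that GATA factors prefer were searched in the same promoter windows as AGATAA or the variants AGATAG with TGATAA and also TGATAG, on both strands. At least 1 match was in 7 of 39 member promoters (17.9%) and in 29.8% of all promoters. Those of Adamts17, Adamts18 and Timp4 held none of these letters in this window. The window covers only the start, so this says nothing of more distant elements or of Gata6 itself. The table gave promoters for 36 of the 51 members, and those of Adamts19 and Adamtsl1 were not among them.

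The arrays could also be compared member by member. The sign was the same on both arrays in 20 of 33 members (60.6%) and opposite in 13, beside 48.8% the same over all genes tested. Both Gata6cKO RNAs lay above both control RNAs in 12 members and below them in 5, together 51.5%, beside 33.5% of all genes tested. The 12 include Adamts3, which was kept only through the Gata6cKO RNAs. The 5 include Mmp19, which was kept only through the control RNAs. Each of these 2 thus counts on the side that let it in, and both had signals near background. By family, 12 of 17 ADAMTS genes, 3 of 4 ADAMTSL genes, 3 of 8 MMP genes and 2 of 4 TIMP genes had the same sign on both arrays.

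**Figure D4:**
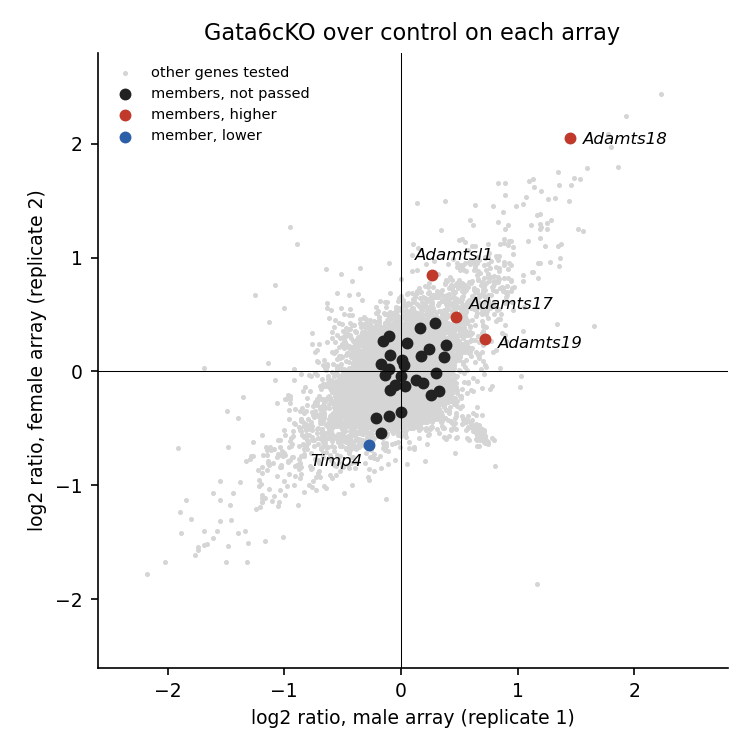
Log2 ratio of Gata6cKO over control on the male array (x axis) and on the female array (y axis), with 19875 tested genes in grey and the 33 members as larger points. The 5 members that passed have the same sign on both axes. Adamts18, at 1.45 and 2.05, is the only member beyond 1 on both axes.

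Genes that work with these enzymes were described from 3 lists of the same pathway. Of 23 other metalloproteases (ADAM, tolloid and related genes), 18 were measured and 0 passed in limma at an adjusted p under 0.05, with 7 at an unadjusted p under 0.05. That count was 7 of the 23 measured activators and inhibitors and 11 of the 29 measured matrix proteins described below, beside 11.4% of all genes tested. Of 27 activators and inhibitors, 23 were measured, 2 were lower and 0 higher. Spint1, a membrane inhibitor of serine proteases in epithelia, fell by 0.48 on the log2 scale (SE 0.12, n = 2, limma adjusted p = 0.0277). Thsd4, also called ADAMTSL6, which binds fibrillin, fell by 0.47 (SE 0.12, n = 2, limma adjusted p = 0.0379). The MMP activator Furin and the MMP inhibitor Reck, at -0.14 and 0.16, did not pass.

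Of 32 matrix proteins that these enzymes cut or bind, 29 were measured, 4 were lower and 1 was higher. The small leucine-rich proteoglycans Lum and Dcn had log2 ratios of -0.62 ± 0.11 and -0.55 ± 0.12 (limma adjusted p = 0.0042 and 0.0144, moderated SE, n = 2). Postn, a fibroblast matrix protein, was at -0.52 ± 0.13. Vwf, the substrate of Adamts13 and a product of endothelium, was higher by 1.02 ± 0.21 (limma adjusted p = 0.0091), more so between males (1.65) than between females (0.39). Versican (Vcan), the shared substrate of several ADAMTS proteoglycanases, was at -0.08 and did not pass. Over all 70 measured genes of the 3 lists, 6 were lower and 1 was higher, with a median log2 ratio of -0.01. Over all genes tested, 2.36% were lower and 2.22% higher.

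**Figure D5:**
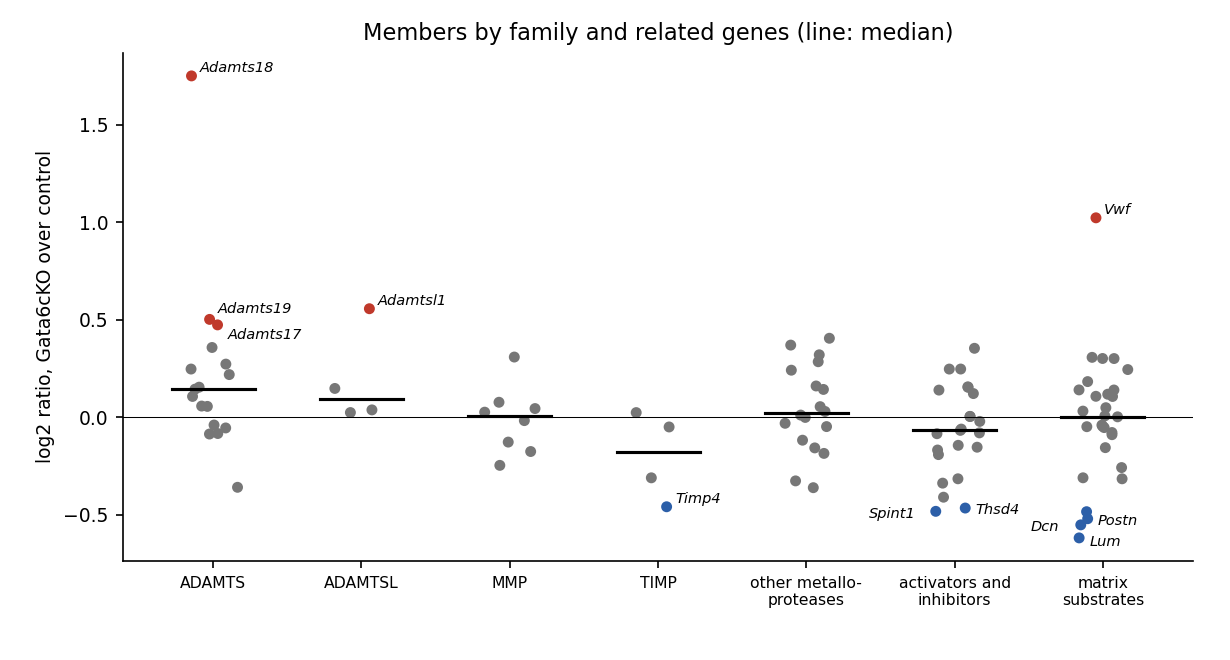
Log2 ratio of Gata6cKO over control (y axis, mean of 2 arrays) for each tested member by family and for each measured gene of 3 related lists (x axis). Lines are medians, red and blue mark genes that passed as higher and lower, and points are spread sideways at random for legibility. The median is 0.14 for ADAMTS, 0.005 for MMP and -0.18 for TIMP genes.

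Markers of the cells in the ureter and around it moved between the same RNAs. Of 13 neuronal markers, 12 were higher and 0 lower (median log2 ratio 1.30), and their summed signal was 31604 and 32104 in control and 52729 and 49999 in Gata6cKO. Urothelial markers were lower in 9 of 18 and higher in 0, with a summed signal of 302218 and 280379 in control and 230924 and 214510 in Gata6cKO. Smooth muscle markers were lower in 4 and higher in 1 of 10 (summed signal 48937 and 38613 in control, 37325 and 30906 in Gata6cKO). Mesenchymal and fibroblast markers were lower in 4 and higher in 1 of 9 (272270 and 280470 in control, 223844 and 224409 in Gata6cKO). Mesothelial markers were lower in 3 and higher in 2 of 5. Glial markers were higher in 2 of 6, skeletal muscle markers higher in 4 of 7, and nephron markers higher in 3 and lower in 1 of 6. The summed signals of these lists went opposite ways on the 2 arrays. For glia they were 86762 and 79142 in control and 82160 and 91979 in Gata6cKO. For skeletal muscle they were 23668 and 20684 in control and 23932 and 16596 in Gata6cKO. For the nephron they were 20600 and 17825 in control and 21880 and 17469 in Gata6cKO. Endothelial markers were lower in 1 and higher in 1 of 9. Red blood cell markers were lower in 4 of 7, neutrophil and mast cell markers lower in 2 of 7, and macrophage markers passed in 0 of 10. Cartilage markers passed in 0 of 4. Markers not kept, or not found under the listed name, included Matn1, Matn3 and Comp of cartilage, Lmod1 of smooth muscle and Ngp of neutrophils. Epb4.2 of red cells, Ckm of skeletal muscle, Lrrn4 and Muc16 of mesothelium, and Slc12a1 and Nphs1 of the nephron were also among them. So was Emr1 of macrophages, an older name of Adgre1, which is on the same list and was measured. Krt19 and Upk3b stand in the urothelial and the mesothelial list. Some markers are also among the matrix proteins described above, so these counts are not separate. They are Vwf of endothelium, Lum and Col1a1 of mesenchyme, and Acan, Col2a1, Matn1, Matn3 and Comp of cartilage. Vwf is the 1 endothelial marker that was higher. The part of these shifts in the rise of Adamts18, Adamtsl1, Adamts19 and Adamts17 and in the fall of Timp4 was not tested, and in whole ureters a change in the number of cells of a type cannot be told from a change of RNA per cell.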

How the data were processed

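Two-colour Agilent arrays of total RNA were read from the deposited scanner files, whose columns per the file headers are an uncorrected mean intensity per spot and dye and a local background intensity. The deposited files also hold a processed intensity and its log10 ratio of red over green, made by the authors with Agilent Feature Extraction 10.7.3.1, per the submitters' processing notes. The log10 column itself was not used in a test. The deposited series values are a score per probe, which matched a linear fold with a sign, Gata6cKO relative to control (0 values between -1 and 1, medians of 1, r of 0.985 and 0.980 with the log2 ratio of the processed intensity across probes). How the authors summarised the spots for it is not given in the sources used here. There were 0 unused per-sample columns.

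In R 4.3.3 with limma 3.58.1, statmod 1.5.0 and data.table (1.17.8), background was corrected with normexp (offset 50) and log2 ratios were normalised by loess within arrays, with control and outlier spots at weight 0. Signals per RNA are linear values after loess and Aquantile. Probes entered with 3 or more of 4 spots well above background for 1 genotype on each array (26200 of 39429 probes). The brightest kept probe stood for a gene. The ratio, with its sign turned on the dye-exchanged array, was fitted with lmFit and eBayes (1 residual and 12.2 prior degrees of freedom, prior SD 0.162), with Benjamini-Hochberg adjustment over 19875 genes. The number of arrays, 2, limits the precision. The code was tested on 1 set of simulated ratios with 200 changed genes among 19875. It recovered 82.1% of the 1.5-fold and 100% of the 2-fold and 4-fold changes, with 31 false calls.

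Named with the signal of every RNA were members that passed, the 4 TIMP genes and the brightest of each role group, and others were named after their values were seen. Members, lists and alternatives were chosen with earlier results of these data known. Gene names and mm9 probe positions are those of the scanner files. Gene order and promoters are from RefSeq tables of GRCm38.p6. All 51 members matched by symbol among the genes, and 36 among the promoters. Whether a probe lies in an exon was not determined here. Some genes of the related and marker lists are counted but not reported here by name.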

Additional observations from a re-analysis of the deposited data

How the results depend on the processing

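The number of members called was recomputed under 10 alternatives, and Adamts18 was called in each. Against 4 members called higher, there were 2 with Agilent's processed signals, 1 with median centring in place of loess, 1 with no filter on dim probes, 2 with the mean of the kept probes and 1 with separate channels. Against 1 member called lower, there were 0 with median centring, with no filter and with separate channels, and 2 with the deposited series values. Against 6 related genes called lower, there were 0 with median centring, 1 with no filter and 1 with separate channels. Against 1 related gene called higher, there were 3 without background correction, 3 with an offset of 16, 4 with processed signals, 3 with an intensity trend in the prior, 5 with the deposited series values, and 0 with no filter and 0 with separate channels.

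Single ratios were recomputed for the 14 members named by rule, not for the others. Among these 14, median centring turned 3 ratios that had not passed, to -0.025 for Mmp11, -0.014 for Mmp2 and -0.036 for Timp3. These 14 kept their direction under the other 9 alternatives with a test. Over all genes tested, 470 were lower and 441 higher, which became 100 and 90 with median centring, 231 and 255 with no filter (30011 genes tested), 266 and 272 with separate channels, and 804 and 680 with the deposited series values. Without the filter more genes are tested. The cause of the other changes was not tested.

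Leaving out an array leaves 1 array and no test, so the ratios of the single arrays stand in its place. The fit of ratios is itself paired, since each array holds a Gata6cKO and a control RNA, and the separate channels keep the array as a block. Signal over background limits the 18 members that were not tested.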

Other observations

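Timp1, Timp3 and Timp4 lie within the spans of the synapsin genes Syn1, Syn3 and Syn2, which encode proteins of synaptic vesicles. These host genes were looked up after the members' values were seen. Syn2 was higher in Gata6cKO, with a log2 ratio of 0.59 and a moderated SE of 0.11 (n = 2, limma adjusted p = 0.0057). It was at 0.53 between males and 0.66 between females, where Timp4 had -0.27 and -0.64. Syn1 was also higher, by 0.51 ± 0.11 (limma adjusted p = 0.0169), with Timp1 at -0.05. Syn3 was at 0.08 and Timp3 at 0.02, and neither passed.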
